A study of Mus musculus with 6 samples.

Results

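The poly(A) RNA of pachytene spermatocytes from Alkbh1-/- mice was set against that of wild-type (WT) mice, with 1 library of each genotype. Of the 21310 genes counted, the 12189 with at least 5 CPM, the counts of a gene scaled to a common library size, in the Alkbh1-/- library, the WT library or both are described here. They are 57.2% of the genes and hold 98.99% of the Alkbh1-/- reads and 99.11% of the WT reads. The Alkbh1-/- mice carry a targeted deletion of exon 6, and heterozygotes of the line had been crossed back onto a C57/BL6 background. WT mice carry the intact gene. For both genotypes, RNA longer than 200 nt was taken from isolated pachytene cells, selected with oligo(dT), amplified in 15 PCR cycles and read as 75 bp paired ends. The Alkbh1-/- library started from 1.6 µg of RNA and the WT library from 1 µg. No label gives the age of the mice or the number of animals behind a library. The study's small RNA libraries were not used here.

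Pachytene is the long stage of meiotic prophase in which paired chromosomes complete recombination, while the X and Y chromosomes are packed into the sex body and largely silenced. Pachytene cells also begin to make many transcripts that are translated only later, in spermatids. In the seminiferous tubule they sit in folds of Sertoli cells, the somatic nurse cells of the testis, with myoid cells around the tubule and steroid-making Leydig cells outside it. ALKBH1 belongs to the AlkB family of iron- and 2-oxoglutarate-dependent dioxygenases, and is known as a demethylase of tRNA and a DNA lyase.

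The libraries held 10229260 counts (Alkbh1-/-) and 8222671 counts (WT), with any count in 20586 genes of the Alkbh1-/- library and 19787 genes of the WT library. With 1 library per genotype no difference was tested, and genotype, animal and preparation cannot be told apart. Folds are log2((Alkbh1-/- CPM + 1)/(WT CPM + 1)), so that positive values are higher in Alkbh1-/-, and "higher" and "lower" below refer to 1.5-fold on this scale unless a value is given. Ratios are of CPM, with exact 95% intervals in brackets. These intervals cover counting error only, because there is 1 library per genotype. They treat reads as independent, but reads copied by PCR carry no molecular identifier and are not, so the intervals may be too narrow. CPM carries no correction for gene length, so levels are not compared between genes, and a summed CPM is a share of reads in which abundant and long genes weigh most.

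Most of the transcriptome lay close to equality. Between the libraries, 83.2% of the 12189 genes lay within 1.5-fold, and the median log2 fold was -0.02, with the 5th percentile at -0.82 and the 95th at 0.73. In the Alkbh1-/- library 982 genes were higher (8.06%) and 1071 lower (8.79%), while 219 were 2-fold higher (1.80%) and 330 were 2-fold lower (2.71%). The spread depended on level. Of the 2351 genes with a mean under 10 CPM, 16.5% were higher and 14.5% lower, against 1.9% and 2.6% of the 2267 genes between 100 and 500 CPM. Of the 262 genes at 500 CPM or more, 1 was past 1.5-fold, and that gene was Clu, lower in Alkbh1-/-. The interval of the ratio lay above 1 for 2883 genes (23.7%) and below 1 for 3262 (26.8%). These shares are the background for the groups of genes below.

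**Figure D1:**
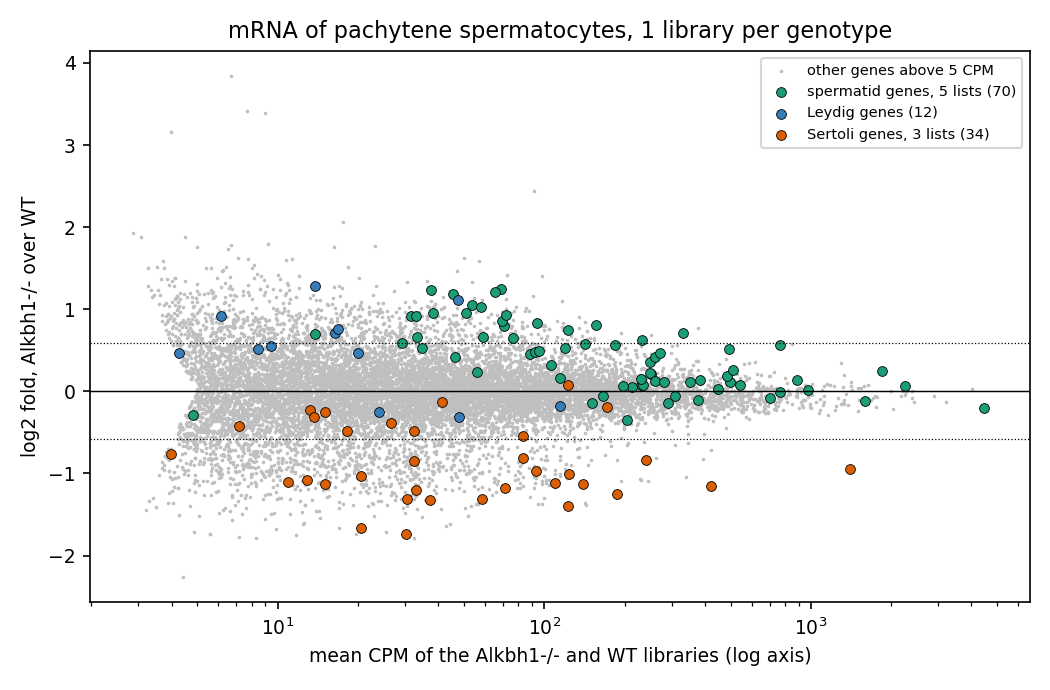
Each point is 1 gene with 5 CPM or more in either library, placed by its mean CPM (horizontal, log axis) and its log2 fold, Alkbh1-/- over WT (vertical); dotted lines mark 1.5-fold, and coloured points are Sertoli, Leydig and spermatid list genes above that floor. The spread narrows with level, 33 of 34 Sertoli genes lie below 0, and 59 of 70 spermatid genes lie above it.

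The targeted gene had 209 counts in the Alkbh1-/- library (20.2 CPM) and 171 counts in the WT library (21.0 CPM). The ratio of Alkbh1 was 0.962 (0.782 to 1.18). These counts cover the gene as a whole, so they do not check the loss of exon 6. Of the other AlkB family members above the floor, none of which was past 1.5-fold, those with most reads were Fto, at 119.9 CPM in Alkbh1-/- and 128 CPM in WT, and Alkbh5, at 109 CPM in Alkbh1-/- and 118 CPM in WT. Both remove methyl groups from adenosines of mRNA. Zbtb32, also called Tzfp, the BTB zinc finger gene that the study pairs with Alkbh1, had 423 CPM in Alkbh1-/- and 328 CPM in WT, a ratio of 1.29 (1.23 to 1.35).

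The labelled cell type was checked against its markers. The 10 pachytene markers in the table ran between 79.6 and 4234 CPM in Alkbh1-/- and between 48.9 and 4918 CPM in WT, and none was at 0. Hspa2, the chaperone of spermatocytes, had 2267 CPM in Alkbh1-/- and 2270.0 CPM in WT. Ybx2, which packages stored mRNA, had 2399.6 CPM in Alkbh1-/- and 2395 CPM in WT. The log2 folds of the 10 markers ran between -0.24 (Ccna1) and 0.93 (Spag6). Spag6 had 94.2 CPM in Alkbh1-/- and 48.9 CPM in WT. Summed, the 10 markers came to 10973 CPM in Alkbh1-/- and 11608 CPM in WT. Sertoli, Leydig, myoid, spermatogonial and spermatid markers were also read in both libraries. Summed over 9 markers, Sertoli reads came to 405 CPM in Alkbh1-/- and 884 CPM in WT. The 7 Leydig markers summed to 149 CPM in Alkbh1-/- and 73.8 CPM in WT, and the 9 spermatid markers to 1842 CPM in Alkbh1-/- and 1484 CPM in WT. Of 3 red cell markers only the globin gene Hba-a1 was matched, with 1 count in Alkbh1-/- and 0 in WT. Of 5 epididymis markers only Defb48 was matched, with 2 counts in each library. These 2 genes do not show whether such cells were absent. In the wider lists, Slc4a1 of red cells had 23 counts in Alkbh1-/- and 5 in WT. Defb45 and Rnase10 of the epididymis had 2.03 and 8.32 CPM in Alkbh1-/- and 9.10 and 6.27 CPM in WT.

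**Figure D2:**
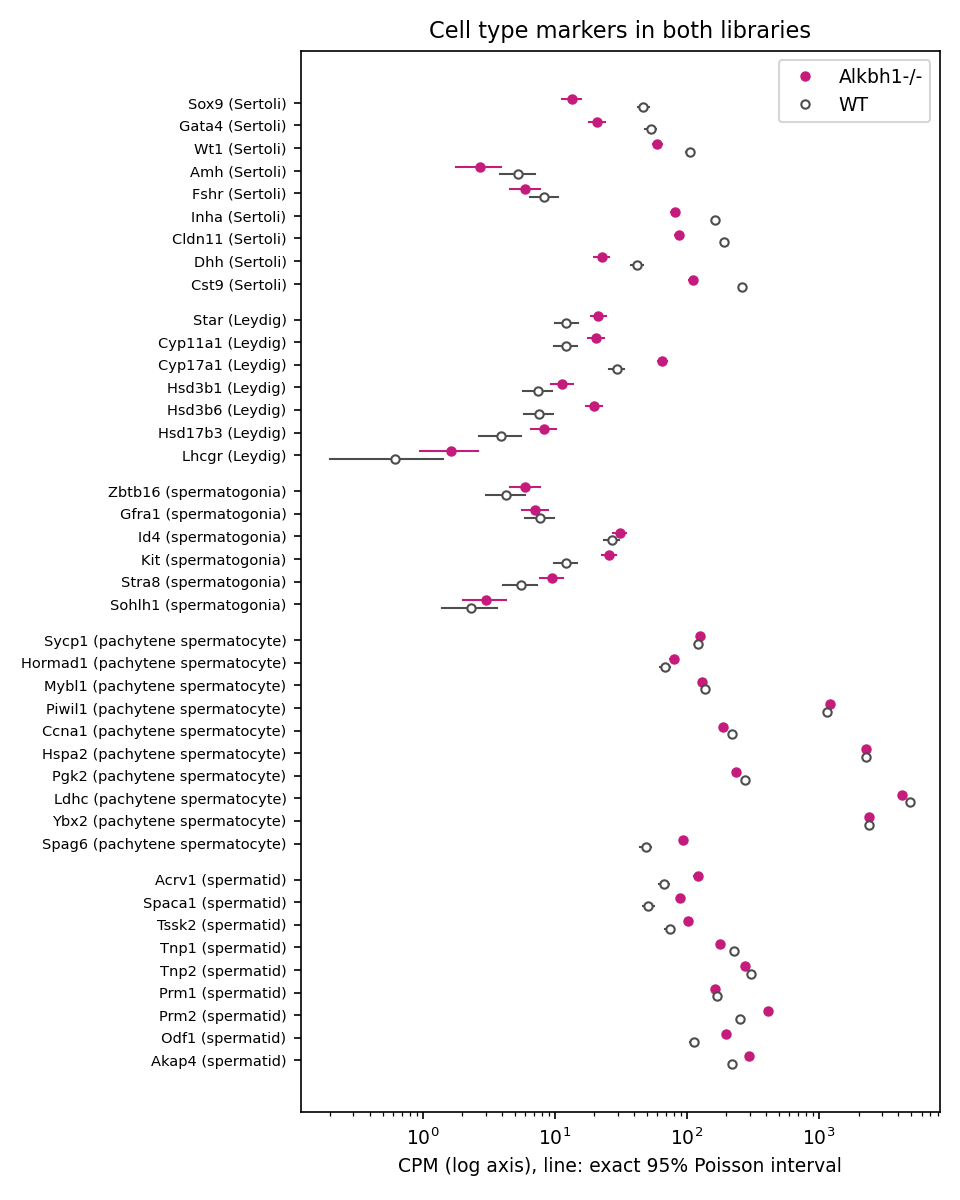
CPM of each cell type marker (log axis) in the Alkbh1-/- library (filled points) and the WT library (open points), with lines for the exact 95% Poisson interval of the count. The Sertoli markers lie to the left in Alkbh1-/-, from Sox9 at 13.4 against 47.1 CPM in WT, and the Leydig markers lie to the right. Of the pachytene markers, Hspa2 and Ybx2 coincide, and Spag6 lies to the right in Alkbh1-/-.

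Sertoli cell genes were lower in the Alkbh1-/- library. Over 3 lists, 23 of the 34 members above the floor were lower and 0 were higher, around a median log2 fold of -0.99 (all genes, -0.02), and 4 further members were below the floor. Their summed reads were 2655 CPM in Alkbh1-/- and 5051 CPM in WT, a ratio of 0.526 (0.518 to 0.534). In bulk RNA, fewer cells of a type and less RNA per cell cannot be told apart.

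Among the Sertoli transcription factors 7 of 9 were lower. Sox9, which commits the supporting lineage to the Sertoli fate, had 13.4 CPM in Alkbh1-/- and 47.1 CPM in WT, a log2 fold of -1.73. Nr0b1, the X-linked nuclear receptor DAX1, had 9.38 CPM in Alkbh1-/- and 31.8 CPM in WT. Gata4, a zinc finger factor of gonadal somatic cells, had 20.9 CPM in Alkbh1-/- and 53.6 CPM in WT. Wt1, the list member with most reads, had a log2 fold of -0.82, and Dmrt1, which germ cells also express, had one of -0.39.

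Hormones, ligands, receptors and secreted proteins of Sertoli cells were lower in 12 of 13 members, and the exception, Fshr, the receptor for follicle-stimulating hormone, had 6.00 CPM in Alkbh1-/- and 8.36 CPM in WT, a log2 fold of -0.42. Inhbb, an activin and inhibin subunit, had 33.1 CPM in Alkbh1-/- and 83.6 CPM in WT. Kitl, the ligand for the KIT receptor of spermatogonia, had 17.2 CPM in Alkbh1-/- and 44.0 CPM in WT. Clu, a secreted chaperone and the Sertoli gene with most reads, had 957 CPM in Alkbh1-/- and 1847 CPM in WT. Its loss of 890 CPM was the largest of any gene, and Ctsl, a lysosomal protease that Sertoli cells secrete, lost 322 CPM, with 262 CPM in Alkbh1-/- and 583 CPM in WT. Amh, the hormone of immature Sertoli cells, was low in both libraries, at 2.71 CPM in Alkbh1-/- and 5.29 CPM in WT.

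Junction and cytoskeleton genes varied more. Of 12 members above the floor 4 were lower and the median log2 fold was -0.48. Vim, the intermediate filament of Sertoli cells, had 43.4 CPM in Alkbh1-/- and 99.6 CPM in WT. Cldn11, the claudin of the blood-testis barrier, had 87.1 CPM in Alkbh1-/- and 192 CPM in WT. Gja1, a gap junction connexin, had 62.5 CPM in Alkbh1-/- and 123 CPM in WT, and Espn, an actin bundler of the ectoplasmic specialization, had 173 CPM in Alkbh1-/- and 309 CPM in WT. By contrast the N-cadherin gene Cdh2 had a ratio of 0.874 (0.814 to 0.938) and the scaffold gene Tjp1 of 1.05 (0.969 to 1.15). Many cell types express both.

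The promoters of 3 genes are printed to show the sequence next to members of the Sertoli, Leydig and spermatid groups, from 250 bases before to 50 bases after the annotated start in RefSeq on GRCm38.p6. In each window capitals mark only the motif or motifs named for that gene, searched on both strands. In Cst9 they mark ACAAAG, the core that SOX proteins bind. In Hsd3b6 they mark that core and, nearer the start, AGATAA, which GATA factors bind. In Izumo1 they mark TGACGTCA, the palindrome that CREM binds in spermatids, and matches to the SOX core and to the GATA motif in that window are left in lower case. ACAAAG was found in 18.7% of all 32851 promoter windows, AGATAA in 11.2% and TGACGTCA in 1.79%. Over the 9029 windows of genes above the floor these shares were 17.2%, 7.25% and 3.70%. Of the 23 Sertoli promoters with a window, 3 held ACAAAG and 3 held AGATAA. Of the 9 Leydig promoters, 3 held ACAAAG and 3 held AGATAA. Of the 57 spermatid promoters, 1 held TGACGTCA, 8 held AGATAA and 20 held ACAAAG. A match describes the letters in this window and shows no binding.
Cst9, chr2:148834897-148835196, plus strand: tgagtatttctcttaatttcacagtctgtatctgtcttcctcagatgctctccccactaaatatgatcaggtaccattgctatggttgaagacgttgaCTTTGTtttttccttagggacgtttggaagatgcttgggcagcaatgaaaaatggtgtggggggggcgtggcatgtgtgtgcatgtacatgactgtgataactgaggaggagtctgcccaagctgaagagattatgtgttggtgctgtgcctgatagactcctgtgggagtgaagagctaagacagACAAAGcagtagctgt
Hsd3b6, chr3:98814394-98814693, minus strand: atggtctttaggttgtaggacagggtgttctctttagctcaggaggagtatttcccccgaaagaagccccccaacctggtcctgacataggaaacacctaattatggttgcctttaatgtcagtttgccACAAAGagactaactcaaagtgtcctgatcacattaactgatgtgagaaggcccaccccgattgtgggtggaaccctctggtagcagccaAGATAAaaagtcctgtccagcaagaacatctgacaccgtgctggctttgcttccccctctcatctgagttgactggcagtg
Izumo1, chr7:45621561-45621860, plus strand: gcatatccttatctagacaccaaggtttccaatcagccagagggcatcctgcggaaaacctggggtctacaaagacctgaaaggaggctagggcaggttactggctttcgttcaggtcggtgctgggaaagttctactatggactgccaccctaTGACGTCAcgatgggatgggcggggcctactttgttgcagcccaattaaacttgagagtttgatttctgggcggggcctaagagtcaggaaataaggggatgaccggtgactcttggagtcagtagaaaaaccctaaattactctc

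Cst9, a cystatin of Sertoli cells also called testatin, had 111 CPM in Alkbh1-/- and 264 CPM in WT, a ratio of 0.419 (0.390 to 0.451). Its neighbour in the family Cst12 had 69.1 CPM in Alkbh1-/- and 151 CPM in WT. Cystatins share sequence, and no source used here gives how reads were divided among such copies.

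Retinoic acid, made from vitamin A in Sertoli and germ cells, triggers meiotic entry. Of the 10 retinoid genes above the floor, 3 were lower and 0 higher. Cyp26b1, which degrades retinoic acid, had 5.03 CPM in Alkbh1-/- and 13.4 CPM in WT. Aldh1a1, the retinaldehyde dehydrogenase of Sertoli cells, had 49.3 CPM in Alkbh1-/- and 97.4 CPM in WT, and Stra6, the retinol carrier of the cell membrane, had 5.22 CPM in Alkbh1-/- and 10.8 CPM in WT. Aldh1a2, the retinaldehyde dehydrogenase of spermatocytes, had 192 CPM in Alkbh1-/- and 201 CPM in WT, a ratio of 0.957 (0.896 to 1.02). The 3 lower genes had ratios between 0.375 and 0.507, near the 0.526 of the Sertoli lists, whose part in this result was not tested.

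Leydig cell genes went the other way. Of 12 members above the floor 5 were higher (41.7%) and 0 lower, and the median log2 fold was 0.53. The share higher was 8.06% of all genes, 16.5% of those with a mean under 10 CPM and 9.79% between 10 and 20 CPM. Hsd17b3, which was higher, and Nr2f2, within 1.5-fold, were under 5 CPM in WT. Both passed the floor only through Alkbh1-/-. Hsd3b6, the 3-beta-hydroxysteroid dehydrogenase of adult Leydig cells, had 19.9 CPM in Alkbh1-/- and 7.62 CPM in WT, a ratio of 2.61 (1.96 to 3.53). Hsd3b1 is a near copy, so the division of reads between them is uncertain. Cyp17a1, which makes androgens from progestins, had 65.2 CPM in Alkbh1-/- and 29.6 CPM in WT. Hsd17b3, which makes testosterone, had 8.32 CPM in Alkbh1-/- and 3.93 CPM in WT, and Star, the mitochondrial cholesterol carrier, had 21.5 CPM in Alkbh1-/- and 12.3 CPM in WT. Scarb1, the lipoprotein receptor, with the most reads of the list, had 108 CPM in Alkbh1-/- and 122 CPM in WT, and the electron carrier Fdx1 had 42.6 CPM in Alkbh1-/- and 52.98 CPM in WT. Both are expressed well beyond Leydig cells. Lhcgr, the receptor for luteinizing hormone, was below the floor, with 17 counts in Alkbh1-/- and 5 in WT.

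Genes of cholesterol synthesis, which feeds steroid synthesis, were spread on both sides. Of 19 members 2 were higher and 1 lower. Sqle, the squalene epoxidase, had 100.3 CPM in Alkbh1-/- and 66.1 CPM in WT. Fdft1, the squalene synthase and the list member with most reads, had 274 CPM in Alkbh1-/- and 245 CPM in WT, a ratio of 1.12 (1.06 to 1.19).

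Other somatic cells left few reads. Of the 14 macrophage genes 13 were below the floor, and the exception, the mannose receptor gene Mrc1, had 50.7 CPM in Alkbh1-/- and 95.8 CPM in WT, while Csf1r, the receptor that defines the lineage, had 2 counts in Alkbh1-/- and 4 in WT. Of 10 endothelial genes 4 were above the floor, 1 higher and 1 lower. The higher gene, Tek, passed the floor only through Alkbh1-/-, and the lower gene, Cdh5, only through WT. Smooth muscle genes of the myoid wall were split. Acta2, smooth muscle actin, had 5.90 CPM in Alkbh1-/- and 2.34 CPM in WT, and Myh11, smooth muscle myosin, had 6.00 CPM in Alkbh1-/- and 2.83 CPM in WT, while Myl9, a myosin light chain of many cells, had 20.02 CPM in Alkbh1-/- and 45.97 CPM in WT. Acta2 and Myh11 passed the floor only through Alkbh1-/-.

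The X chromosome stood apart from every autosome in the share of its genes that were lower. Of 360 X-linked genes above the floor, 130 were lower in Alkbh1-/- (36.1%) and 30 were higher (8.33%), and 51 were 2-fold lower against 0 that were 2-fold higher. Of 11134 autosomal genes, 7.99% were lower and 7.72% higher. Single autosomes ran between 6.38% and 11.9% lower, and between 5.46% and 9.93% higher. The median log2 fold was -0.35 on the X chromosome, and on the autosomes it ran between -0.06 and 0.01. X-linked genes took 0.645% of reads in Alkbh1-/- (Wilson interval 0.640% to 0.650%) and 0.831% in WT (0.825% to 0.837%).

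**Figure D3:**
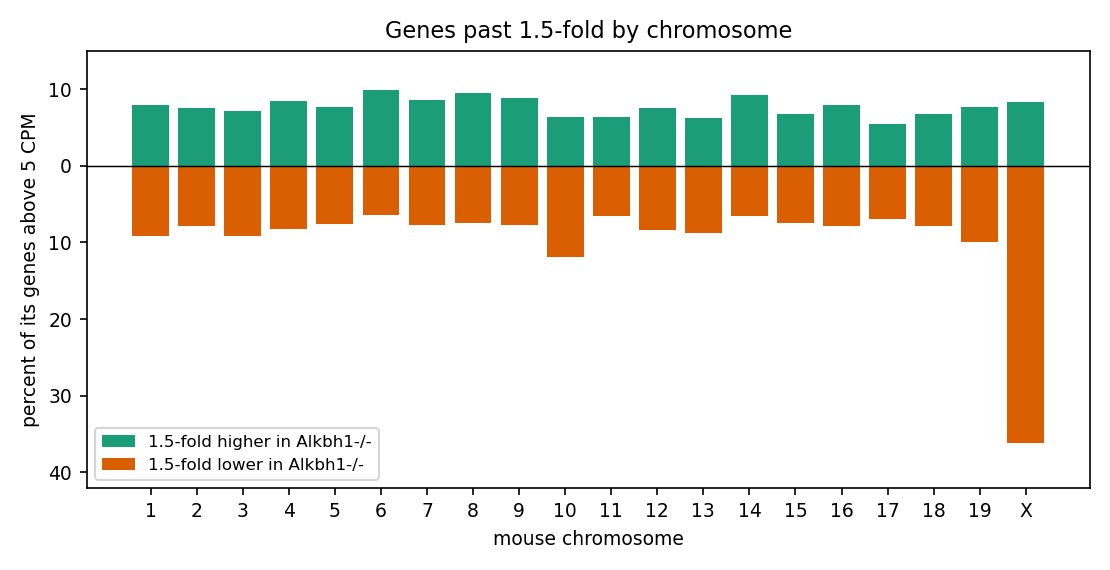
For each mouse autosome and the X chromosome, the percent of its genes above 5 CPM that were 1.5-fold higher in Alkbh1-/- (above the line) or 1.5-fold lower (below it, drawn downward as a positive percent). The X chromosome reaches 36.1% lower, while no autosome exceeds 11.9%. The Y chromosome, with 5 genes above the floor, is not drawn.

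The share of lower genes on the X chromosome was high at both levels of abundance and differed by class of gene. With a mean of 20 CPM or more, 41 of 85 X-linked genes were lower (48.2%), against 5.89% of autosomal genes at that level. Under 20 CPM, 32.4% of X-linked genes were lower, against 11.9% of autosomal genes. Of 301 protein-coding genes on the X chromosome 123 were lower (40.9%), against 8.29% of autosomal protein-coding genes. Of 49 X-linked pseudogenes 4 were lower (8.16%), against 4.42% of all 339 pseudogenes above the floor, the X-linked ones included. The Sertoli lists hold 5 of the X-linked genes, and without them 125 of 355 were lower (35.2%). Without any gene of the named lists it was 125 of 348 (35.9%). The summed ratio of the Sertoli lists in the same libraries was 0.526, and beyond this removal of list genes their part in the result was not tested.

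The X-linked genes at either end, among those with 10 CPM or more, were chosen after their values were seen. Wnk3, a kinase that regulates chloride cotransporters, had 20.2 CPM in Alkbh1-/- and 65.3 CPM in WT, and 4933402E13Rik had 21.3 CPM in Alkbh1-/- and 67.4 CPM in WT. Tmsb4x, the actin-sequestering thymosin beta-4, had 26.2 CPM in Alkbh1-/- and 76.9 CPM in WT, and Maged2, a MAGE family gene, had 21.8 CPM in Alkbh1-/- and 60.5 CPM in WT. Ddx3x, a broadly expressed RNA helicase, had 16.4 CPM in Alkbh1-/- and 44.9 CPM in WT, a log2 fold of -1.39. Its Y-linked homologue Ddx3y had 8.22 CPM in Alkbh1-/- and 11.4 CPM in WT, a log2 fold of -0.43. Genes of the germ line were among the X-linked genes at the high end. Taf7l, a germ cell paralogue of a TFIID subunit, had 25.7 CPM in Alkbh1-/- and 15.4 CPM in WT, and Tcp11x2 and Akap14 had log2 folds of 0.84 and 0.71. Akap4, an X-linked fibrous sheath gene of spermatids that is not at this end, had 296 CPM in Alkbh1-/- and 222 CPM in WT, a log2 fold of 0.41. Of the 5 Y-linked genes, Uba1y, a ubiquitin-activating enzyme, was higher with 26.2 CPM in Alkbh1-/- and 15.5 CPM in WT, and the other 4 lay within 1.5-fold.

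Genes known for silencing the sex chromosomes at meiosis mostly lay within 1.5-fold, on both sides of equality. Of 10 members above the floor 1 was higher and 0 lower. Atr, the checkpoint kinase of the sex body, had 682 CPM in Alkbh1-/- and 740.1 CPM in WT, and Mdc1, which spreads the damage signal along the X chromosome, had 616 CPM in Alkbh1-/- and 549 CPM in WT. H2afx, the histone variant that carries this signal, had 58.7 CPM in Alkbh1-/- and 51.5 CPM in WT. Autosomal retrogenes stand in for silenced X-linked parents, and 0 of the 7 above the floor were past 1.5-fold. Of these, Cetn1 had 404 CPM in Alkbh1-/- and 552 CPM in WT, and Pgk2 had 238 CPM in Alkbh1-/- and 274 CPM in WT.

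Among genes of the germ line, those of early prophase and of spermatids leaned higher, and those of late pachytene and division did not. Over the 3 lists of recombination and chromosome axis genes, 8 of 38 members above the floor were higher, 0 were lower and the median log2 fold was 0.26. For the late pachytene and division lists these were 2 of 31, 0 and -0.08. Over the 5 spermatid lists, 23 of 70 were higher, 0 were lower and the median log2 fold was 0.39. Over all genes 8.06% were higher and 8.79% lower. Of the higher prophase genes, Rec114, Mnd1, Dmc1 and Rnf212 were under 5 CPM in WT and passed the floor only through Alkbh1-/-. The floor favours large folds among such genes, so the prophase count is not evenly set against all genes. With a floor of 20 CPM, 3 prophase genes and 22 spermatid genes were higher. The members above that floor were not counted, so these are not shares. The plot of list members shows each gene.

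**Figure D4:**
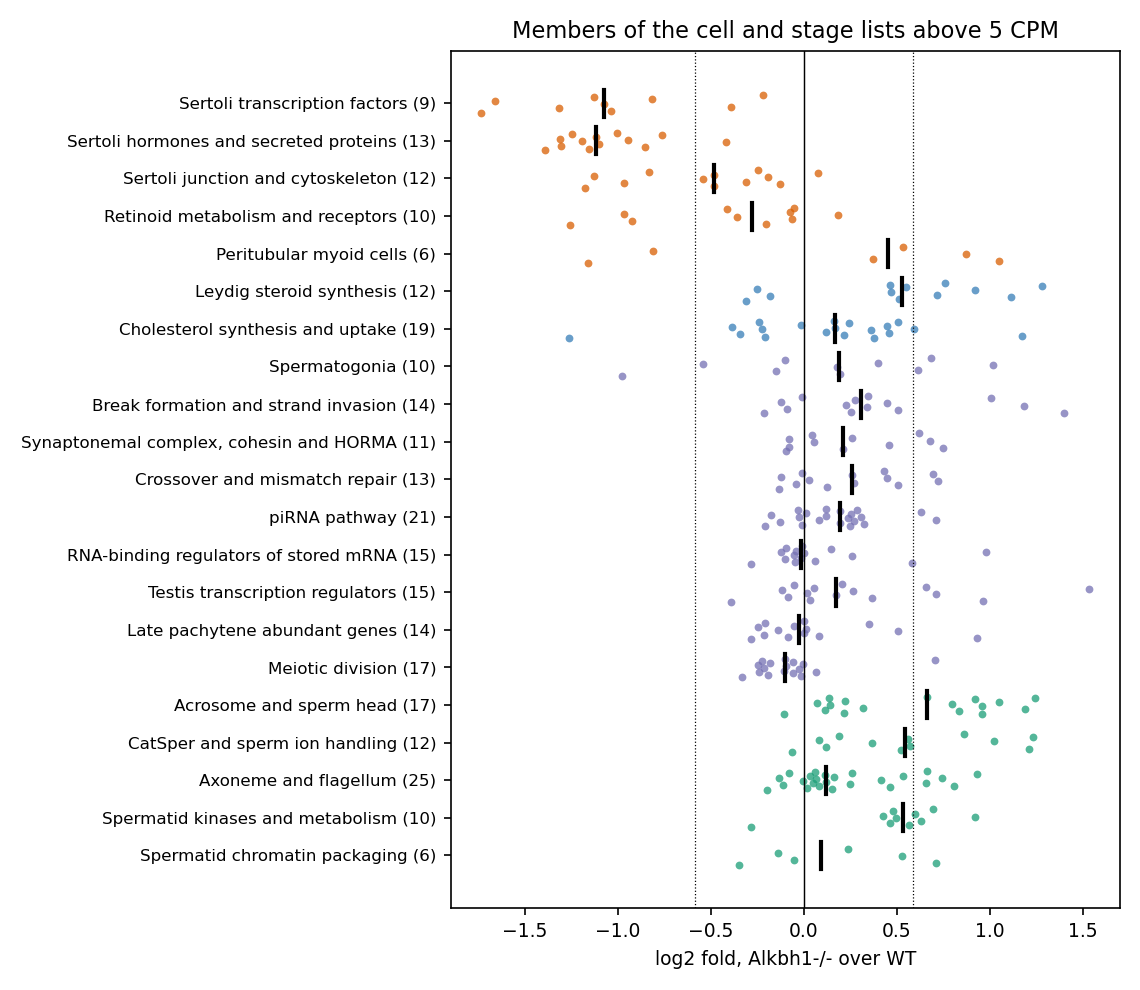
Log2 fold, Alkbh1-/- over WT, of each list member above 5 CPM (points), with the list median as a black bar and 1.5-fold as dotted lines; the number of members plotted follows each name. All but 1 of the Sertoli genes lie left of 0, the acrosome list has its median at 0.66, and the meiotic division list is centred at -0.10.

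Early prophase genes with low counts had the largest folds. Of the break formation and strand invasion genes, 3 of 14 above the floor were higher. All 3 were under 5 CPM in WT and passed the floor only through the Alkbh1-/- library. Of all genes with a mean under 10 CPM, 16.5% were higher. Rec114, a partner of the break-making machinery, had 10.1 CPM in Alkbh1-/- and 3.20 CPM in WT, a ratio of 3.15 (2.03 to 5.04). Mnd1, an accessory factor of strand invasion, had 6.58 CPM in Alkbh1-/- and 2.34 CPM in WT, and Dmc1, the meiotic recombinase, had 9.38 CPM in Alkbh1-/- and 4.18 CPM in WT. Prdm9, which marks hotspots, was below the floor with 3.87 CPM in Alkbh1-/- and 0.860 CPM in WT. Members with many reads did not show this. Rpa1, which coats single-stranded DNA, had 421 CPM in Alkbh1-/- and 458 CPM in WT, and Meioc, which sustains the meiotic program, had 259.6 CPM in Alkbh1-/- and 277 CPM in WT.

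Of the 11 axis and synaptonemal complex genes above the floor 3 were higher and 0 lower. Rec8, the meiotic cohesin, had 62.3 CPM in Alkbh1-/- and 36.6 CPM in WT. Tex12, of the central element, had 12.2 CPM in Alkbh1-/- and 7.25 CPM in WT, and Hormad2, which binds unsynapsed axes, had 33.9 CPM in Alkbh1-/- and 21.8 CPM in WT. Stag3, a cohesin subunit and the member with most reads, had a ratio of 1.03 (0.996 to 1.07), and Sycp2, of the lateral element, one of 0.946 (0.910 to 0.982). In the crossover list 2 of 13 were higher, Msh4 with 26.6 CPM in Alkbh1-/- and 15.7 CPM in WT, and Rnf212 with 6.58 CPM in Alkbh1-/- and 3.69 CPM in WT. Rnf212 passed the floor only through the Alkbh1-/- library. MSH4 stabilizes crossover intermediates and RNF212 marks the sites that will cross over.

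Genes of spermatogonia and meiotic entry moved in both directions. Of 10 above the floor 3 were higher and 1 lower. Kit, the receptor of differentiating spermatogonia, had 25.6 CPM in Alkbh1-/- and 12.2 CPM in WT, and Stra8, the meiotic gatekeeper, had 9.48 CPM in Alkbh1-/- and 5.53 CPM in WT. Etv5, which both Sertoli cells and spermatogonial stem cells express, was the lower gene, at 21.7 CPM in Alkbh1-/- and 43.6 CPM in WT. Leydig cells also express Kit, and both libraries held reads of Leydig markers, whose part in this value was not tested.

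The machinery of late pachytene was steady by comparison. Of 14 late pachytene genes 1 was higher, Spag6 with a log2 fold of 0.93, and 0 were lower. Piwil1, the PIWI protein of pachytene piRNAs, had 1217 CPM in Alkbh1-/- and 1151 CPM in WT. Adam3, a sperm surface protein, had 1256 CPM in Alkbh1-/- and 1386 CPM in WT, and Ldhc, the germ cell lactate dehydrogenase, had 4234 CPM in Alkbh1-/- and 4918 CPM in WT, a ratio of 0.861 (0.849 to 0.873). Clgn, a testis chaperone of the endoplasmic reticulum, had 1448 CPM in Alkbh1-/- and 1137 CPM in WT. Of 17 division genes 15 had a log2 fold below 0, yet the lowest was Aurkc at -0.33, and Espl1, the separase, had 252 CPM in Alkbh1-/- and 300.04 CPM in WT. Cdc25c, the phosphatase that activates CDK1, was the 1 higher gene, with 15.9 CPM in Alkbh1-/- and 9.34 CPM in WT.

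In the piRNA pathway 2 of 21 members above the floor were higher (9.52%) and 0 lower, against 8.06% and 8.79% of all genes. The share higher was thus near that of all genes. Pnldc1, the exonuclease that trims piRNA ends, had 20.1 CPM in Alkbh1-/- and 11.9 CPM in WT, and Mov10l1, the helicase that hands precursors to PIWI proteins, had 186 CPM in Alkbh1-/- and 120.2 CPM in WT. Tdrd6, a tudor scaffold of the chromatoid body and the list member with most reads, had 1887 CPM in Alkbh1-/- and 2185 CPM in WT. Among transcription regulators of the testis 4 of 15 were higher (26.7%). Ctcfl, the germ cell paralogue of CTCF, had 12.6 CPM in Alkbh1-/- and 3.69 CPM in WT, and passed the floor only through Alkbh1-/-. Rfx3, a regulator of cilium genes, had 29.5 CPM in Alkbh1-/- and 14.6 CPM in WT. Rfx2, the regulator with most reads, had 633 CPM in Alkbh1-/- and 618 CPM in WT. Among RNA-binding regulators of stored mRNA 1 of 15 was higher (6.67%). This was Cpeb1, with 14.3 CPM in Alkbh1-/- and 6.76 CPM in WT, while Ybx3 had 2227 CPM in Alkbh1-/- and 2294 CPM in WT.

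Spermatid genes differed most in the acrosome list, where 9 of 17 members were higher and the median log2 fold was 0.66. Zp3r, a zona-binding protein of the acrosomal matrix, had 97.3 CPM in Alkbh1-/- and 40.6 CPM in WT, a ratio of 2.40 (2.12 to 2.72). Spaca7, an acrosomal protein, had 63.5 CPM in Alkbh1-/- and 27.3 CPM in WT, and Sun5, which couples the sperm head to the tail, had 72.3 CPM in Alkbh1-/- and 34.4 CPM in WT. Izumo1, the sperm protein of gamete fusion, had 50.97 CPM in Alkbh1-/- and 25.8 CPM in WT and was chosen for its promoter, printed above. The members with most reads differed less. Adam2, a fertilin subunit, had 925 CPM in Alkbh1-/- and 843 CPM in WT, and Spata16, of the acrosome vesicle, had a log2 fold of 0.11.

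The sperm ion channel list was split in the same way. Catsper3 and Catsper4, pore subunits of the CatSper calcium channel, had 53.3 and 92.0 CPM in Alkbh1-/- and 22.1 and 39.2 CPM in WT, while Catsper2, also a pore subunit, had 517 CPM in Alkbh1-/- and 455 CPM in WT, a log2 fold of 0.19. Kcnu1, the sperm potassium channel SLO3, had 77.7 CPM in Alkbh1-/- and 37.7 CPM in WT. Catsperg1 and Catsperg2 code for near-identical accessory subunits, so their reads are uncertain, and their log2 folds were 0.56 and 0.52. The subunits of this 1 channel thus had log2 folds between 0.08 (Catsperb) and 1.23 (Catsper3).

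Of 25 flagellar genes 5 were higher. Odf1, of the outer dense fibres, had 199 CPM in Alkbh1-/- and 113 CPM in WT, and Cabyr, of the fibrous sheath, had 154 CPM in Alkbh1-/- and 91.5 CPM in WT. Spag6, of the central pair, had 94.2 CPM in Alkbh1-/- and 48.9 CPM in WT. The heavy chain genes of axonemal dynein, which take many reads, did not share this. Dnah8 had 4153 CPM in Alkbh1-/- and 4766 CPM in WT, and Dnah17 had 1529 CPM in Alkbh1-/- and 1654 CPM in WT. Among genes that pack spermatid chromatin, Prm2 had 413 CPM in Alkbh1-/- and 252 CPM in WT, but its partner Prm1 had 164 CPM in Alkbh1-/- and 169.7 CPM in WT, and the transition protein gene Tnp1 had 179 CPM in Alkbh1-/- and 228 CPM in WT. Of the 6 chromatin genes above the floor, 3 had a log2 fold above 0 and 3 below it. Of 10 spermatid kinase and metabolism genes 4 were higher, led by Tssk3, a spermatid kinase, with 43.6 CPM in Alkbh1-/- and 22.6 CPM in WT.

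Isoforms of some glycolytic enzymes and of tubulin differed in the size of their folds. Of 16 somatic glycolysis genes above the floor 5 were lower, and these were Hk2, Pfkl, Ldhb, Pgam1 and Pkm, of which Pkm was named after its value was seen. Hk2, the inducible hexokinase, had 39.2 CPM in Alkbh1-/- and 92.8 CPM in WT, whereas Hk1, which spermatogenic cells express, had 657 CPM in Alkbh1-/- and 518 CPM in WT. Pgam1 had 16.8 CPM in Alkbh1-/- and 29.1 CPM in WT, whereas Pgam2 of the germ cell list had 700.3 CPM in Alkbh1-/- and 694 CPM in WT. The lactate dehydrogenase genes Ldhb, Ldha and Ldhc all had log2 folds below 0, at -0.85, -0.18 and -0.22. None of the 6 germ cell isozyme genes was past 1.5-fold. Slc2a3, the glucose transporter of spermatocytes, had 4045 CPM in Alkbh1-/- and 3959 CPM in WT.

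Tubulins, named after their values were seen, were split by isotype. Tuba1a had 30.6 CPM in Alkbh1-/- and 80.6 CPM in WT, and Tubb5 had 51.3 CPM in Alkbh1-/- and 109 CPM in WT. Tuba1b and Tuba1c were lower as well, with log2 folds of -0.80 and -0.83. The testis isotypes Tuba3a and Tuba3b, near-identical copies whose reads are uncertain, had log2 folds of 0.00 and 0.01, and Tubb4b, abundant in axonemes, had 1039 CPM in Alkbh1-/- and 976 CPM in WT. The Sertoli lists were lower in the same library, and their part in the tubulin and glycolysis values was not tested.

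Few genes of the housekeeping and stress groups were past 1.5-fold. Of 59 cytosolic ribosomal protein genes above the floor 4 were lower and 1 higher, around a median of -0.18 in log2 fold, and 42 had a log2 fold below 0. These genes have many processed copies, which makes single members uncertain. Of 70 mitochondrial ribosomal protein genes 0 were past 1.5-fold. Of 73 respiratory chain genes 3 were lower and 0 higher, and 60 had a log2 fold below 0 around a median of -0.16. Their intervals lay below 1 for 32 genes and above 1 for 4. Of 38 proteasome genes 2 were lower. None of 20 DNA repair genes and none of 13 genes of the unfolded protein response was past 1.5-fold.

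Single members were past 1.5-fold in other groups. Hspb1, a small heat shock protein of somatic cells, had 5.71 CPM in Alkbh1-/- and 19.4 CPM in WT, and Hspa8, the constitutive HSC70, had 42.8 CPM in Alkbh1-/- and 65.1 CPM in WT, the 2 lower of 19 heat shock genes. Of 17 tRNA modification genes above the floor 3 were higher (17.6%) and 0 lower, against 8.06% and 8.79% of all genes. The share higher was 16.5% of all genes with a mean under 10 CPM and 9.79% of those between 10 and 20 CPM. Qtrt1, which inserts queuine into tRNA, had 9.87 CPM in Alkbh1-/- and 4.55 CPM in WT, and passed the floor only through Alkbh1-/-. Adat2, a tRNA adenosine deaminase, had 10.3 CPM in Alkbh1-/- and 5.16 CPM in WT, and Nsun6, a tRNA cytosine methyltransferase, had 14.1 CPM in Alkbh1-/- and 8.97 CPM in WT. Nsun2, also a cytosine methyltransferase and the list member with most reads, had 294 CPM in Alkbh1-/- and 284 CPM in WT. In the DNA methylation list 2 of 13 were higher (15.4%), named after their values were seen. These were Dnmt3l, a cofactor of de novo methylation, with 8.995 CPM in Alkbh1-/- and 4.55 CPM in WT, and Morc1, a transposon silencing factor, with 11.2 CPM in Alkbh1-/- and 5.78 CPM in WT. Dnmt3l passed the floor only through Alkbh1-/-. Dnmt1, the maintenance methyltransferase, had 166 CPM in Alkbh1-/- and 162 CPM in WT.

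Immediate early genes, which cells switch on within minutes of a stimulus or of handling, were 3 higher (33.3%) and 1 lower (11.1%) of 9. These shares were 8.06% and 8.79% over all genes. They were 16.5% and 14.5% of genes with a mean under 10 CPM, and 9.79% and 11.2% of those between 10 and 20 CPM. Egr1 had 17.9 CPM in Alkbh1-/- and 8.60 CPM in WT, Fos had 9.38 CPM in Alkbh1-/- and 4.42 CPM in WT, and Nr4a1 had 18.4 CPM in Alkbh1-/- and 9.46 CPM in WT. Jun, the member with most counts, had 20.7 CPM in Alkbh1-/- and 24.7 CPM in WT, and Ier2, named after its value was seen, had 3.68 CPM in Alkbh1-/- and 8.60 CPM in WT. Fos passed the floor only through Alkbh1-/-, and Ier2 only through WT.

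Counted as a gain of CPM, which weighs abundant genes, 6 of the 12 largest gains in Alkbh1-/- were in genes of the named lists, and so were 5 of the 12 largest losses. Of the 4877 genes with 50 CPM or more in either library, 240 were in a named list. BC051142 gained 336 CPM, with 1014 CPM in Alkbh1-/- and 679 CPM in WT. Rsph1, of the radial spokes, gained 313 CPM, and Clgn gained 311 CPM. The lncRNA gene Gm14244 had 474 CPM in Alkbh1-/- and 278 CPM in WT, and Dpep3, a testis dipeptidase, had 625 CPM in Alkbh1-/- and 497 CPM in WT. After Clu, the largest losses were in Ldhc (-685 CPM) and Dnah8 (-613 CPM), whose ratios were 0.861 and 0.871. Amhr2, the receptor of anti-Müllerian hormone in Sertoli and Leydig cells, had 223 CPM in Alkbh1-/- and 459 CPM in WT. Psap, a lysosomal and secreted prosaposin, had 283 CPM in Alkbh1-/- and 503.5 CPM in WT.

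Among the 4877 genes with 50 CPM or more in either library, Vav2, a guanine nucleotide exchange factor, had the highest log2 fold. It had 1611 counts in Alkbh1-/- (155.8 CPM) and 226 counts in WT (27.8 CPM), a ratio of 5.61 (4.88 to 6.48). Next came Fer1l5, a ferlin family gene, with 76.0 CPM in Alkbh1-/- and 24.0 CPM in WT, and Zan, the zonadhesin of the acrosome, with 86.0 CPM in Alkbh1-/- and 28.0 CPM in WT. Dcst1, of sperm membranes, and Nutm1, a chromatin factor of spermatids, had log2 folds of 1.47 and 1.34, and Hmga2, an architectural chromatin protein, had 1.22. At the low end, 4 of the 12 genes were X-linked, against 33 X-linked genes among the 4877. Serpina3a, 1 of a cluster of like serpins and therefore uncertain, had 14.02 CPM in Alkbh1-/- and 50.9 CPM in WT. Aqp8, a water channel of Sertoli cells, had 17.3 CPM in Alkbh1-/- and 52.0 CPM in WT, and Gatm, the first enzyme of creatine synthesis, had 78.8 CPM in Alkbh1-/- and 208 CPM in WT. Aard, a Sertoli gene, had 67.3 CPM in Alkbh1-/- and 178 CPM in WT.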

How the data were processed

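The deposited mRNA table gives, per Ensembl gene, the authors' whole-number read count in the Alkbh1-/- and WT libraries. Per the submitters' processing notes, Novoalign, TopHat, bedtools, CASAVA 1.3 and mm9 were used, without their roles. No source used here gives the counting rule, annotation or use of strand, so overlapping and antisense genes and near-identical copies are uncertain. Of 21310 identifiers, 19848 (93.1%) matched a symbol, and 11502 of the 12189 genes described had a chromosome. List entries without a match (39, among them Sycp3, Rhox5 and Insl3) were not analysed here.

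Counts were scaled by TMM (edgeR 4.0.16, R 4.3.3) to CPM, and folds used a pseudocount of 1 CPM and a floor of 5 CPM in either library, where 5 CPM is 51.7 counts in Alkbh1-/- and 40.7 in WT. Low folds are understated by the pseudocount. A gene under 5 CPM in 1 library passed the floor only through the other. The floor thus favours large folds among such genes. Ratios have exact Clopper-Pearson intervals (95%). Summed CPM covers every list member in the table, also below the floor. The scripts (Python 3.11.15, scipy 1.17.1) were checked on simulated data. Alternatives were other scalings (library totals, DESeq2 1.42.0 size factors), pseudocounts and floors.

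The rule named Alkbh1 and Zbtb32, up to 4 members of each list with the largest fold in the direction of its median and the 3 with most WT counts, the 12 largest gains and losses of CPM, and the 12 highest and lowest folds at 50 CPM or more. Any gene named beyond it was chosen after its values were seen. The members and lists were chosen with earlier results of these data known. Promoters came from RefSeq on GRCm38.p6.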

Additional observations from a re-analysis of the deposited data

How the results depend on the processing

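No paired analysis was possible because each genotype had 1 library, and for the same reason no library could be left out. With library totals or DESeq2 size factors in place of TMM, the counts of 2-fold genes and of Sertoli, spermatid, Leydig, prophase and X-linked genes stayed within 1.5 times. A pseudocount of 5 CPM left 50 genes 2-fold higher and 135 lower, 5 prophase and 3 Leydig genes higher. A floor of 20 CPM left 80 genes 2-fold higher, 200 lower, 3 prophase and 3 Leydig genes higher, and 58 X-linked genes lower (53.7% of those on the X chromosome, against 6.68% of autosomal genes). Without a floor 357 genes were 2-fold higher, and 18.0% of X-linked and 6.59% of autosomal genes were 1.5-fold lower. Sign changes were counted only for list medians past 1.5-fold, of which 4 changed sign. These were macrophages (0.0496), beta-defensins (0.0184), the Rhox cluster (0.133) and serpins (0.0879), of which most members were under 5 CPM. Sertoli genes lower ran between 20 and 24 and spermatid genes higher between 21 and 26 over the alternatives. Of 862 counts 735 stayed within 1.5 times, and of 1833 values of single genes 1804 moved by no more than their counting interval. Counting error is the only error these libraries can give. A gene at 0 in 1 library may hold up to 3 counts, which is 0.290 CPM in Alkbh1-/- and 0.369 CPM in WT.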

Other observations

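Long non-coding RNA genes leaned higher in the Alkbh1-/- library. Of the 305 annotated as lncRNA in RefSeq and above 5 CPM, 62 were 1.5-fold higher (20.3%) and 9 lower (2.95%), with a median log2 fold of 0.13, against 7.51% higher and 9.20% lower of 10787 protein-coding genes. With a mean of 20 CPM or more, 11 of 94 lncRNA genes were higher (11.7%) and 0 lower, against 4.73% higher and 6.595% lower of protein-coding genes at that level. Under 20 CPM these were 24.2% and 4.27% of 211 lncRNA genes, against 12.8% and 14.2% of protein-coding genes. Among those with 10 CPM or more, Gm12128 had 12.5 CPM in Alkbh1-/- and 4.67 CPM in WT, and 1700067P10Rik had 41.9 CPM in Alkbh1-/- and 20.04 CPM in WT. At the low end, 1700011M02Rik and Tslrn1, both on the X chromosome, had 6.58 and 5.51 CPM in Alkbh1-/- and 18.8 and 12.3 CPM in WT. The lncRNA gene with most WT reads, 1700028J19Rik, had 587 CPM in Alkbh1-/- and 602 CPM in WT. Of 466 genes that still carry RIKEN clone names, 90 were higher and 21 lower. These overlap the lncRNA genes, and the 303 not annotated as lncRNA had 61 higher and 15 lower. Predicted genes with Gm names had 62 higher and 20 lower of 530, around a median log2 fold of -0.002. No source used here says whether reads were counted by strand, so a lncRNA that overlaps a coding gene cannot be told apart from it.

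Of all genes 8.06% were higher and 8.79% lower. Of 22 beta-defensins 19 were below the floor and 3 were lower, with Defb19 at 78.5 CPM in Alkbh1-/- and 164 CPM in WT and Defb36 at 18.96 CPM in Alkbh1-/- and 47.3 CPM in WT. The other, Defb45, passed the floor only through WT, with 2.03 CPM in Alkbh1-/- and 9.10 CPM in WT. Of 40 serpins 33 were below the floor, and of the other 7, 4 were lower (57.1%) and 2 higher (28.6%). Among the lower was Serpina5, the protein C inhibitor, with 59.9 CPM in Alkbh1-/- and 126 CPM in WT. Over every member in the table, without a floor, the median log2 folds were 0.0184 for the beta-defensins and 0.0879 for the serpins. Collagen and laminin genes were 4 higher (12.1%) and 9 lower (27.3%) of 33. Lama1 had 36.9 CPM in Alkbh1-/- and 63.9 CPM in WT, while Col5a1 had 25.7 CPM in Alkbh1-/- and 6.88 CPM in WT. Solute carriers were 10 higher (5.18%) and 28 lower (14.5%) of 193. The zinc finger genes named Zfp were 14 higher (5.86%) and 15 lower (6.28%) of 239, both below the shares of all genes. The genes named in this paragraph were chosen after their values were seen.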
